A study of Drosophila melanogaster with 36 samples.

Results

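The Cpr genes of Drosophila melanogaster encode cuticular proteins, and they were taken here as every gene whose FlyBase symbol starts with Cpr followed by a digit. Of 70 such symbols, 62 had a row in at least 1 of the 3 expression tables, and 41 had a value of 10 or more in at least 3 of the 12 libraries of a tissue and were followed as members. The filter was passed by 39 of 62 Cpr genes in head, where 11197 genes passed in all, by 32 of 48 in fat body, where 10850 genes passed, and by 10 of 30 in ovary, where 9438 genes passed. Of the 41 members, 31 passed in head and fat body, 7 of these in ovary as well, and 2 passed in head and ovary, 6 in head only, 1 in fat body only (Cpr47Eg) and 1 in ovary only (Cpr30B).

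The RNA came from adult females that had been reared as larvae on a high-quality diet (H, 120% of the standard sugar, yeast and agar medium, SYA) or on the medium-quality standard (M, 100% SYA), and all adults were then kept on 1 common diet. Females were taken when 60% of their cohort had died (RNA-2) or when 10% had died (RNA-1), so the 4 groups of each tissue were H RNA-2, H RNA-1, M RNA-2 and M RNA-1, each with 3 libraries, 36 libraries in all. Each library pooled tissue from 11 or 12 females. Fat body was the abdomen without gut and ovaries, so it also held the abdominal body wall and other cells. No source used here gives the cell type behind a value, and fewer cells of a type cannot be told apart from less RNA per cell. The comparisons ask how expression changed with age within each larval diet, whether that change differed between diets, and how the diets differed at each time point. Time points were set by cohort mortality and not by days, so H and M females at the same point may differ in days of age. RNA-2 females were those still alive at that mortality, so a change with age may include a difference between survivors and the whole cohort.

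The insect cuticle is a layered matrix of chitin fibres and proteins that the epidermis secretes on its outer side. Cpr proteins carry the Rebers and Riddiford sequence, an extended form of which binds chitin, and the mixture of such proteins is known to differ between soft and hard cuticle and between layers. Most of the adult cuticle is made in the pupa, and inner layers are still added in young adults. The same kind of protein is used by other cells that face an outside surface: tracheal cells line the airways with cuticle, and in the eye the corneal lens of each facet is a cuticular structure that contains Cpr66D and Cpr72Ec. A Cpr name gives the polytene chromosome band of the gene, and neighbours in a tandem cluster share the band and differ in the last letter. For most single members no role beyond that of a structural cuticle protein is stated here.

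The values were normalized counts, which the authors had scaled for depth within each tissue, so levels in different tissues are given side by side only. Library totals were 54372800 to 75354700 normalized counts. The sum over Cpr genes was 0.0546 to 0.0946% of a library in head, 0.0312 to 0.108% in fat body and 0.00018 to 0.00105% in ovary. Some head libraries stood apart. Across genes, the level relative to the mean of the tissue was correlated with the length of the transcript at r = -0.38, 0.18 and -0.48 in M RNA-1 replicates 1, 2 and 3, against -0.0017 to 0.22 in the other 9 head libraries, a description over 11116 genes that are not independent. Cpr genes were short, with a median exon length of 1010 bases in head against 2012 bases over all genes, so head results in M are given with all libraries and again with M RNA-1 replicates 1 and 3 removed. In fat body the summed germline markers (4 genes in the table) were 249 to 8975 in H RNA-2 with replicate 2 the lowest, 770.1 to 3483 in H RNA-1, 222 to 454 in M RNA-2 and 3358 to 5603 in M RNA-1, and the counts are also given without H RNA-2 replicates 1 and 3 and M RNA-1 replicate 1.

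**Figure D1:**
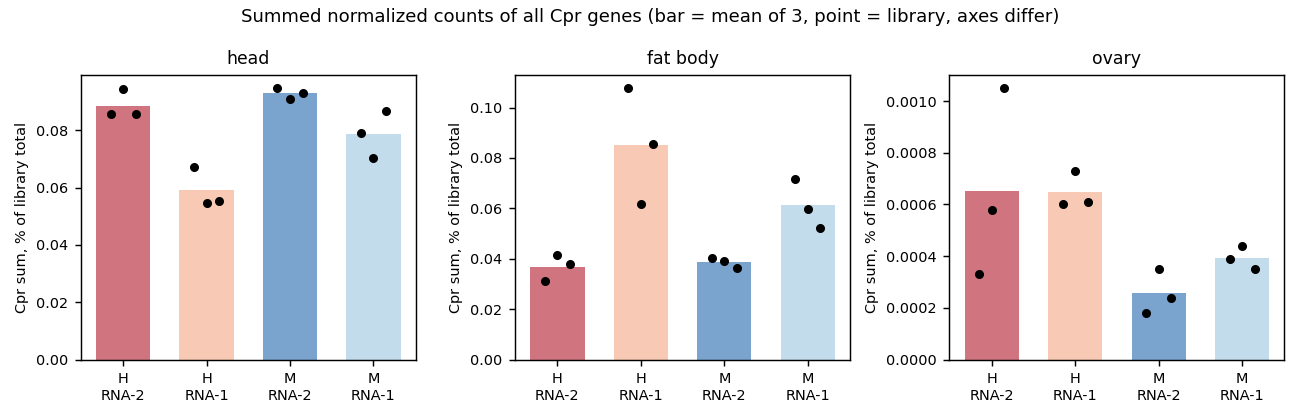
Sum of the normalized counts of all Cpr genes as a percentage of the library total, by group, in head, fat body and ovary (points, libraries; bars, means of 3 libraries; the 3 vertical axes differ). In fat body the 6 RNA-2 libraries lie at 0.0312 to 0.0417% and the 6 RNA-1 libraries at 0.0524 to 0.108%.

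In head, a few members held most of the Cpr signal. Cpr67B (chromosome 3L, 9404797 to 9406174 of BDGP6) made up 45.9% of the Cpr sum and Cpr65Au 19.2%, and the 6 members with the highest means together 82.9%. Per kilobase of exon the order was Cpr67B with a mean of 22268 normalized counts over the 12 libraries, Cpr65Au with 17915, Cpr57A with 2330, Cpr51A with 1715, Cpr62Bb with 1640, Cpr47Ee with 1463 and Cpr49Ae with 1370. Cpr65Au, which was not called in head in any comparison, had 10005, 9737 and 7888 in H RNA-2, 7983, 7412 and 5541 in H RNA-1, 10025, 12521 and 11253 in M RNA-2 and 11036, 8347 and 11333 in M RNA-1, and its time points overlapped in both diets. The median member had a mean of 137 normalized counts. At the other end, Cpr67Fa2 was the lowest member inside the filter with a mean of 5.92, and Cpr78Cb was the highest gene outside it with a mean of 7.82 and a value of 10 or more in 2 libraries. Cpr67Fa2 has a close copy in Cpr67Fa1, so its reads may be split between them.

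With age, Cpr expression in the head changed in both directions in both diets, and the members that fell included the corneal lens proteins and 3 neighbouring genes of the Cpr49A cluster. A member is called changed where limma gave a Benjamini-Hochberg adjusted p under 0.05 over all genes tested. Between RNA-2 and RNA-1 in H, 9 members rose and 6 fell of 39, where 19.5% of all genes were called, 11% higher and 8.56% lower. In M, 3 rose and 10 fell of 39, where 32% of all genes were called, 15.8% higher and 16.1% lower. The share of members called in M, 33.3%, was thus near that of all genes. The median log2 change of the members was 0.21 in H and -0.19 in M, against -0.01 and 0.02 over all genes tested. The 6 members lower in H were all lower in M (100% of the H list and 60% of the M list). The 3 higher in M were all higher in H (33.3% of the H list and 100% of the M list), and none was called in opposite directions. The share of all genes called in both diets was not computed, so this overlap is not shown to be particular to the members. The H and M comparisons share no library, but both take their spread from all head libraries, so their calls are not independent. All RNA-2 libraries were above all RNA-1 libraries for 14 members in H and 6 in M, and below them for 10 members in H and 11 in M, where 20.9% (H) and 21% (M) of all genes were higher without overlap and 21.5% (H) and 21.3% (M) lower. Dividing by library totals instead moved the split to 13 higher and 5 lower in H and 7 higher and 6 lower in M, with the median of all genes shifted to 0.16 in H and 0.29 in M. With M RNA-1 replicates 1 and 3 removed, only 4 members were called in M (Cpr49Ag lower, and Cpr100A, Cpr62Bb and Cpr64Ac higher), M RNA-1 then being 1 library whose spread is taken from the other groups.

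**Figure D2:**
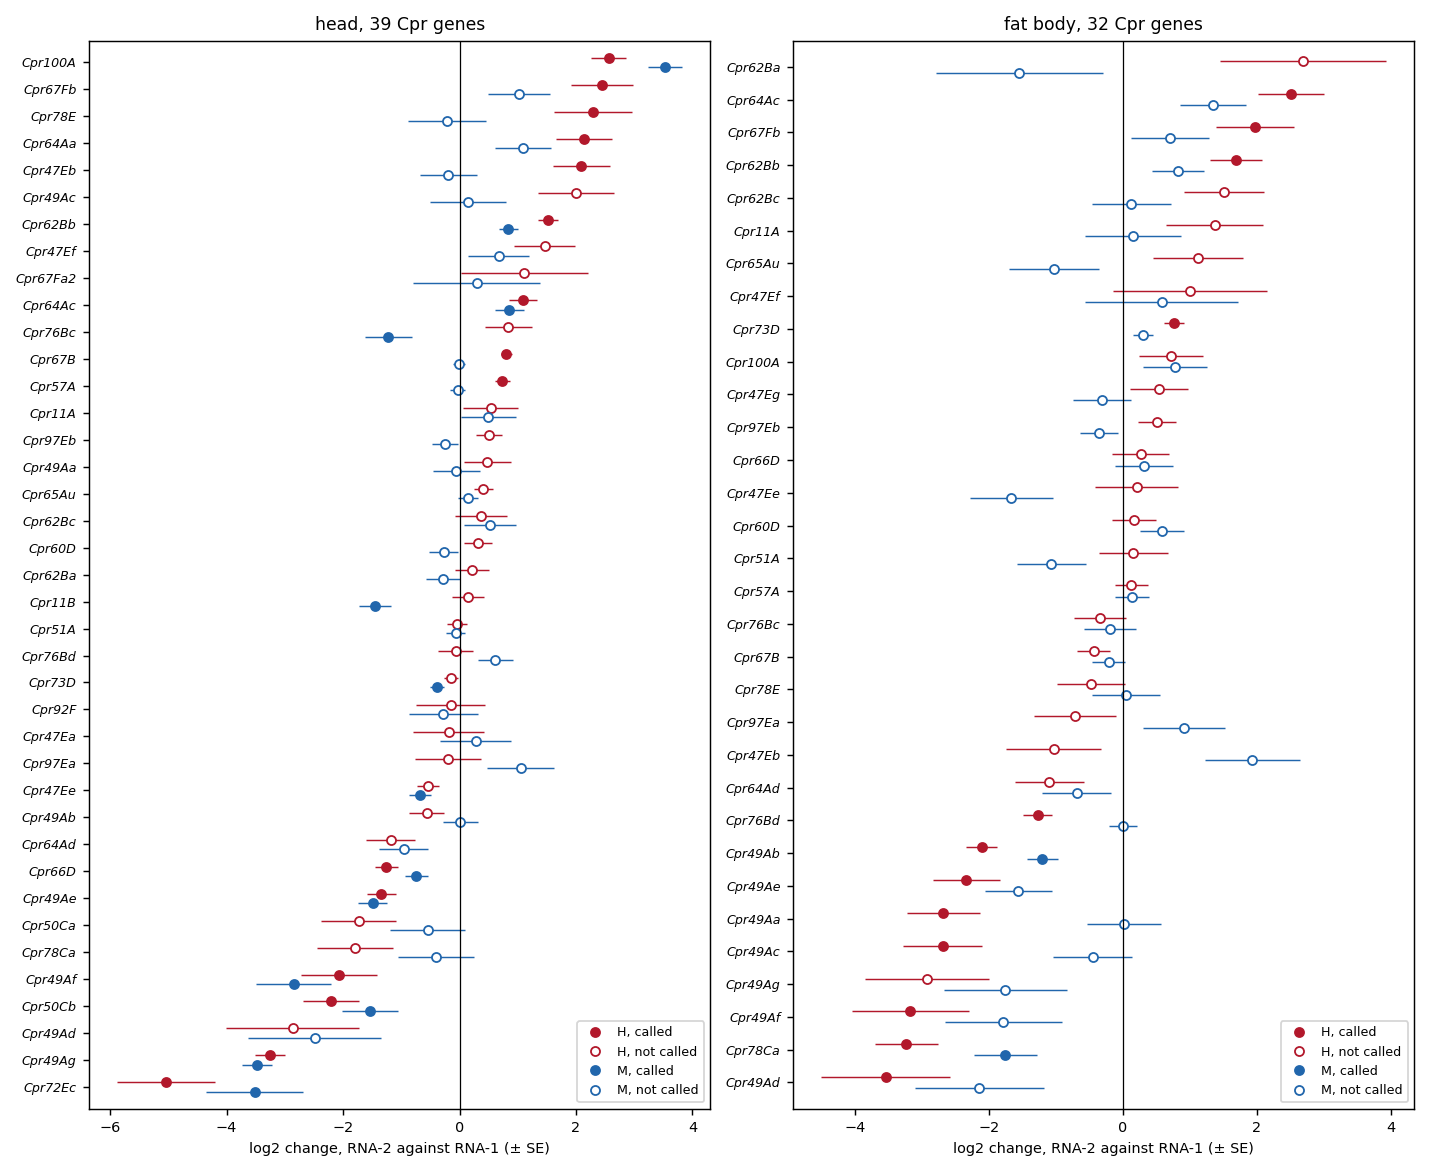
Log2 change (RNA-2 against RNA-1, with its standard error) of each Cpr gene past the filter in head (left) and fat body (right), in H (red) and M (blue); filled points have an adjusted p under 0.05. In head, Cpr100A is farthest to the right in both diets, and Cpr72Ec and Cpr49Ag are farthest to the left. In fat body the 7 Cpr49A genes and Cpr78Ca have the 8 lowest changes in H, and 4 of these 8 (Cpr49Ad, Cpr49Af, Cpr49Ag and Cpr78Ca) passed the filter only through RNA-1 libraries.

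Cpr49Ae, Cpr49Af and Cpr49Ag, neighbours in the Cpr49A cluster, fell in head in both diets. The cluster has 8 named genes within 38.5 kb of chromosome 2R (12376626 to 12415170), of which 7 passed the filter in head. Cpr49Ag had 163, 160.3 and 86.3 normalized counts in H RNA-2, against 1658, 1222 and 1005 in H RNA-1. In M it had 84.4, 80.3 and 70.9 at RNA-2 and 885, 714 and 1099.6 at RNA-1. Every RNA-2 library was below every RNA-1 library of its diet, by far more than the spread within a group (log2 change -3.26 ± 0.26, adjusted p = 1.33e-05 in H; -3.48 ± 0.26, adjusted p = 1.68e-05 in M, ± SE throughout). Cpr49Ae had 1015, 932 and 1031 in H RNA-2 and 3757, 2225 and 1912 in H RNA-1, and 584, 912 and 752 in M RNA-2 and 1937, 1675 and 2763 in M RNA-1. The groups did not overlap in either diet (-1.34 ± 0.25, adjusted p = 0.00307 in H; -1.49 ± 0.25, adjusted p = 0.00187 in M). Cpr49Af, at a much lower level, had 11.9, 8.28 and 14.7 in H RNA-2 and 80.1, 41.7 and 39.0 in H RNA-1, and 2.03, 8.42 and 11.8 in M RNA-2 and 62.6, 19.8 and 102 in M RNA-1. It was lower at RNA-2 in all libraries (-2.07 ± 0.65, adjusted p = 0.0447 in H; -2.85 ± 0.65, adjusted p = 0.00911 in M), but the H call was lost without H RNA-2 replicates 1, 3 or 4, M RNA-2 replicate 2, H RNA-1 replicates 1, 2 or 3 or M RNA-1 replicate 1 (adjusted p between 0.0571 and 0.152, log2 change between -2.25 and -1.74). Cpr49Ac had 783, 1813 and 1259.6 in H RNA-2 and 359, 101 and 769 in H RNA-1, with higher values at RNA-2 and no call (2.00 ± 0.65, adjusted p = 0.0549). It and the 3 remaining genes of the cluster were not called in head in either diet, with log2 changes of -2.87 to 2.00 in H and -2.49 to 0.15 in M. Cpr50Cb, on the same arm, had 8.97, 16.6 and 6.69 in H RNA-2 and 59.5, 72.9 and 28.5 in H RNA-1, and 9.54, 5.54 and 16.9 in M RNA-2 and 37.8, 24.4 and 29.4 in M RNA-1. It fell in both (-2.20 ± 0.48, adjusted p = 0.00768 in H; -1.53 ± 0.48, adjusted p = 0.0338 in M), and was not called in M without M RNA-2 replicates 1 or 2 or M RNA-1 replicates 1 or 3 (adjusted p between 0.0767 and 0.115, log2 change between -1.55 and -1.18).

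Both corneal lens members fell with age. Cpr72Ec had 202, 32.5 and 22.1 normalized counts in H RNA-2, against 1630.3, 1263 and 2692 in H RNA-1. In M it had 50.5, 13.8 and 36.2 at RNA-2 and 314, 158 and 856 at RNA-1. The ranges of the time points did not overlap in either diet, although the libraries of 1 group differed several-fold from each other (log2 change -5.04 ± 0.84, adjusted p = 0.00172 in H; -3.52 ± 0.84, adjusted p = 0.0122 in M). Without M RNA-1 replicate 3, the highest of its group, the M value was -2.87 with an adjusted p = 0.0502. Cpr66D had 98.7, 95.2 and 120.4 in H RNA-2 and 262, 240.1 and 251 in H RNA-1, and 138, 81.6 and 89.3 in M RNA-2 and 195, 151 and 162 in M RNA-1. No RNA-2 value reached an RNA-1 value of the same diet (-1.26 ± 0.20, adjusted p = 0.00104 in H; -0.75 ± 0.20, adjusted p = 0.018 in M), and the M call was lost without M RNA-2 replicates 2 (-0.60, adjusted p = 0.0679) or 3 (-0.66, adjusted p = 0.0673) or M RNA-1 replicate 1 (-0.64, adjusted p = 0.0764). Of the other named lens genes, retinin, a lens surface protein outside the Cpr family, had 6422, 5634 and 5293 in H RNA-2 and 32044, 35679 and 26149 in H RNA-1, and 4415, 2548 and 4418 in M RNA-2 and 44129, 29595 and 43711 in M RNA-1. It fell in both diets (-2.43 ± 0.22, adjusted p = 3.12e-05 in H; -3.39 ± 0.22, adjusted p = 8.06e-06 in M). The lens protein gene Crys was low, at 22.5, 8.50 and 6.83 in H RNA-2 and 16.3, 17.4 and 37.5 in H RNA-1, with log2 changes of -0.94 ± 0.55, adjusted p = 0.29 in H and -0.81 ± 0.55, adjusted p = 0.27 in M. The 5 photoreceptor markers moved with these genes: all 5 fell in both diets, and their sum was 608899.6 to 884202 in H RNA-2, 2245665 to 2838457 in H RNA-1, 621383 to 856840.5 in M RNA-2 and 2623965 to 2824759.8 in M RNA-1. Their part in the lens result was not tested.

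Cpr100A, Cpr62Bb and Cpr64Ac rose in head in both diets. Cpr100A (chromosome 3R, 30867521 to 30869184) had 780.2, 1051 and 786 normalized counts in H RNA-2, against 218, 122 and 116 in H RNA-1. In M it had 1844, 1532 and 1015 at RNA-2 and 92.0, 167 and 119 at RNA-1. The lowest RNA-2 library was several times the highest RNA-1 library in each diet (log2 change 2.56 ± 0.29, adjusted p = 0.000124 in H; 3.53 ± 0.29, adjusted p = 2.46e-05 in M), and the calls held under every alternative run. Cpr62Bb had 2117, 2332 and 2268 in H RNA-2 and 849, 804 and 698 in H RNA-1, and 2339, 1669 and 2718 in M RNA-2 and 1104, 1138 and 1482 in M RNA-1. It rose without overlap in both (1.52 ± 0.17, adjusted p = 9.17e-05 in H; 0.84 ± 0.17, adjusted p = 0.00453 in M), while its neighbours Cpr62Ba and Cpr62Bc were not called (0.21 and 0.37 in H). Cpr64Ac had 245, 202 and 244 in H RNA-2 and 116, 93.0 and 115 in H RNA-1, and 252, 350.1 and 243 in M RNA-2 and 121, 127 and 234 in M RNA-1. The time points did not overlap (1.09 ± 0.24, adjusted p = 0.00878 in H; 0.86 ± 0.24, adjusted p = 0.0235 in M), but M RNA-1 replicate 3 lay close to its RNA-2 libraries and the M call was lost without M RNA-2 replicate 2 (0.69, adjusted p = 0.0883) or M RNA-1 replicate 1 (0.69, adjusted p = 0.0969). Of the 5 epidermal markers, 2 rose and 1 fell in H and 3 rose in M, and their sum was 28470.1 to 35743 in H RNA-2, 18988 to 22773 in H RNA-1, 34475 to 38056 in M RNA-2 and 17749 to 20968 in M RNA-1. Of the 4 tracheal markers 2 rose in each diet, with sums of 10875 to 12214 in H RNA-2, 4851 to 6402 in H RNA-1, 10291 to 14271 in M RNA-2 and 6385 to 6680.4 in M RNA-1. Whether these lists had a part in the changes of the members was not tested.

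In head, 6 members rose in H without a call in M, and for each of these but Cpr67Fb the 3 H RNA-1 libraries lay below the other 9. That order held for 7 of the 39 members in all, also for Cpr62Bb and Cpr64Ac, which rose in both diets. Its share over all genes was not computed, and picking members called in H and not in M favours it. Cpr67B had 23343, 27002 and 26147 normalized counts in H RNA-2, against 16177, 13688 and 13916 in H RNA-1. Its M libraries had 26859, 23181 and 24391 at RNA-2 and 25498, 22675 and 27009.8 at RNA-1. The 3 H RNA-1 libraries were thus below all 9 others (0.81 ± 0.10, adjusted p = 0.000239 in H; -0.01 ± 0.10, adjusted p = 0.928 in M). Cpr57A repeated that order, with 3294, 4237 and 3653 in H RNA-2 and 2501, 2145 and 2064 in H RNA-1, and 4302, 3468 and 3953 in M RNA-2 and 4337, 3489 and 4163 in M RNA-1 (0.73 ± 0.13, adjusted p = 0.00169 in H; -0.03 ± 0.13, adjusted p = 0.86 in M). Cpr57A shares 593 exon bases on the same strand with the odorant-binding protein gene Obp57d, so reads from the shared stretch may belong to either. Cpr47Eb, a low member, had 43.2, 44.6 and 45.5 in H RNA-2 and 7.44, 7.76 and 15.4 in H RNA-1, and 35.4, 77.5 and 82.9 in M RNA-2 and 93.1, 31.5 and 116 in M RNA-1. Its H groups were far apart and its M groups overlapped (2.09 ± 0.49, adjusted p = 0.0111 in H; -0.19 ± 0.49, adjusted p = 0.78 in M). Cpr67Fb had 43.2, 49.9 and 49.6 in H RNA-2 and 4.24, 7.81 and 14.3 in H RNA-1, against 67.9, 41.5 and 46.0 in M RNA-2 and 12.5, 19.3 and 59.7 in M RNA-1. It rose in H (2.45 ± 0.53, adjusted p = 0.00739), and in M the high M RNA-1 replicate 3 lay inside the RNA-2 range. The other 2 were Cpr64Aa, with means of 39.6 ± 29.8 in H RNA-2 and 6.95 ± 2.04 in H RNA-1 (SD, n = 3 each; 2.14 ± 0.49, adjusted p = 0.0093), and Cpr78E, with 14.4 ± 1.36 and 3.00 ± 2.61 in the same order (2.30 ± 0.67, adjusted p = 0.0326). The Cpr78E call was lost without H RNA-2 replicates 1, 3 or 4 or H RNA-1 replicate 2 (adjusted p between 0.0797 and 0.0947, log2 change between 1.48 and 2.37). Cpr67Fb and Cpr65Au each overlap an antisense RNA gene in their exons, and the strand setting of the quantification was not given.

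In head, 4 members fell in M without a call in H, and with M RNA-1 replicates 1 and 3 removed all 4 kept their sign without a call, in a fit where M RNA-1 is 1 library. Cpr11B had 169, 173 and 166 normalized counts in M RNA-2, against 476, 381 and 549.8 in M RNA-1. In H it had 351, 250.3 and 146 at RNA-2 and 278, 185 and 183 at RNA-1. The M RNA-1 libraries were the 3 highest of the 12 (-1.45 ± 0.28, adjusted p = 0.00376 in M; 0.15 ± 0.28, adjusted p = 0.79 in H). Cpr47Ee had 1452, 1567 and 1485 in M RNA-2 and 2701, 2136 and 2385 in M RNA-1, and 1824, 1492 and 1711 in H RNA-2 and 3393, 2448 and 1747 in H RNA-1. It fell in M (-0.68 ± 0.19, adjusted p = 0.0228) with overlapping groups in H (-0.55 ± 0.19, adjusted p = 0.0691). Cpr73D averaged 1129 ± 141 in M RNA-2 and 1473 ± 123 in M RNA-1 (SD, n = 3 each; -0.39 ± 0.12, adjusted p = 0.0311), and Cpr76Bc 166 ± 87.0 and 348 ± 74.7 in the same order (-1.22 ± 0.40, adjusted p = 0.0377). Cpr73D shares 205 exon bases with Ogdh on the opposite strand. With those libraries removed the log2 change was -1.17 ± 0.41 (adjusted p = 0.114) for Cpr11B, which kept its call under every other alternative, -0.51 ± 0.29 for Cpr47Ee, -0.29 ± 0.17 for Cpr73D and -0.84 ± 0.61 for Cpr76Bc. Cpr47Ee was not called without M RNA-2 replicates 1, 2 or 3 or M RNA-1 replicates 1 or 3 (adjusted p between 0.0538 and 0.09, log2 change between -0.71 and -0.59). Cpr73D was not called without M RNA-2 replicates 1 or 2 or M RNA-1 replicates 1 or 3 (adjusted p between 0.064 and 0.116, log2 change between -0.40 and -0.29). Cpr76Bc was not called without H RNA-2 replicates 1 or 3, M RNA-2 replicate 2, H RNA-1 replicate 2 or M RNA-1 replicates 1 or 3 (adjusted p between 0.0509 and 0.118, log2 change between -1.22 and -0.66).

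**Figure D3:**
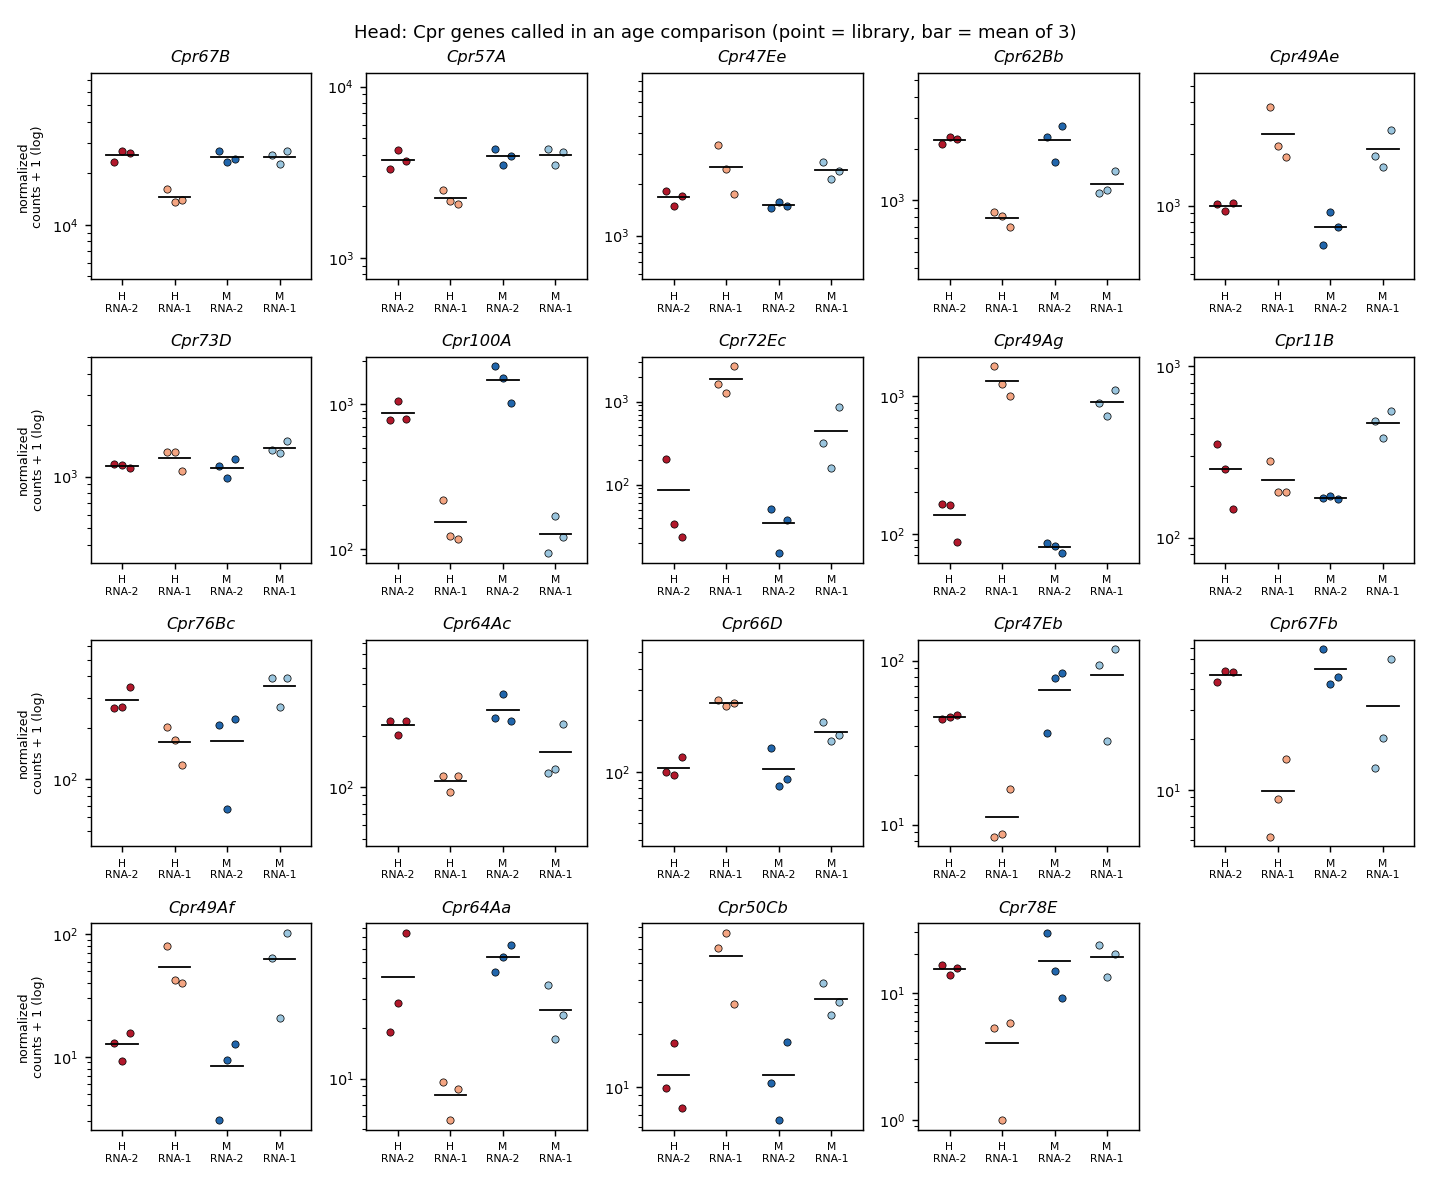
Normalized counts plus 1 in head (logarithmic axis) of the 19 Cpr genes called in an age comparison, by group (points, libraries; bars, means of 3 libraries). Cpr67B and Cpr57A show 3 low H RNA-1 libraries, while Cpr49Ag and Cpr72Ec are lower in the RNA-2 libraries of both diets.

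Between diets in head, 3 of 39 members were lower in H than in M at RNA-1 and none was higher. There 3.39% of all genes were called, 2.75% lower and 0.643% higher. These were Cpr67B (log2 change -0.78 ± 0.10, adjusted p = 0.00809), Cpr57A (-0.84 ± 0.13, adjusted p = 0.0122) and Cpr47Eb (-2.74 ± 0.49, adjusted p = 0.022), whose library values stand above, and for each of them all H RNA-1 libraries were below all M RNA-1 libraries. In all, 12 members were lower in H RNA-1 without overlap and 2 (Cpr66D and Cpr72Ec) higher without overlap, where 10.7% and 6.12% of all genes were lower and higher in this way. These values use the same RNA-1 libraries as the age comparisons. With M RNA-1 replicates 1 and 3 removed, which leaves 1 M RNA-1 library, the log2 changes were -0.64 ± 0.13 for Cpr67B, -0.65 ± 0.16 for Cpr57A and -1.61 ± 0.55 for Cpr47Eb, all without a call. The call of Cpr67B was lost without M RNA-1 replicate 1 (-0.77, adjusted p = 0.0581), that of Cpr57A without H RNA-1 replicate 2 (-0.81, adjusted p = 0.06) or M RNA-1 replicates 1 (-0.77, adjusted p = 0.0724) or 3 (-0.80, adjusted p = 0.0508) and that of Cpr47Eb without H RNA-1 replicate 2 (-2.59, adjusted p = 0.0842) or M RNA-1 replicates 1 (-2.53, adjusted p = 0.102) or 3 (-2.37, adjusted p = 0.0781). Without M RNA-1 replicate 2, on the other hand, 11 members were called. At RNA-2 limma called 0 of 39 members, with 3 at an unadjusted p under 0.05 and 0.196% of all genes called. The age change of H differed from that of M in 0 of 39 members in limma, where 0.152% of all genes were called, with 9 members at an unadjusted p under 0.05. The smallest adjusted p was that of Cpr67B (difference 0.82 ± 0.14, adjusted p = 0.0565), ahead of Cpr57A (0.77 ± 0.18, adjusted p = 0.108) and Cpr11B (1.60 ± 0.39, adjusted p = 0.123). A call in 1 diet and none in the other thus does not show that the diets differed.

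In fat body, the leading member was Cpr49Ab (chromosome 2R, 12378440 to 12379396), with 58.7% of the Cpr sum and 25538 normalized counts per kilobase of exon. It was followed per kilobase by Cpr67B with 6780, Cpr49Ae with 2267, Cpr57A with 1041 and Cpr60D with 454. The 6 highest members by mean held 92.8% of the sum, and the median member had a mean of 61.3 normalized counts. Cpr97Ea, with a mean of 5.77, was the lowest inside the filter, and Cpr47Ea, with 6.18, the highest outside it. In head, where the table was normalized separately, Cpr49Ab had a mean of 325 normalized counts. The Cpr sum was 16987 to 26225 in H RNA-2 and 46204 to 71878 in H RNA-1, and 23101 to 25751 in M RNA-2 and 37395 to 45219 in M RNA-1, so the time points did not overlap in either diet. The Cpr49A genes summed to 8280 to 14697 in H RNA-2 and 38483 to 58819 in H RNA-1, and to 10756 to 13773 in M RNA-2 and 26582 to 30150 in M RNA-1. Their share of the Cpr sum was 48.7 to 56.0% in H RNA-2 and 80.3 to 83.3% in H RNA-1, and 46.6 to 53.8% in M RNA-2 and 66.2 to 71.1% in M RNA-1. Most of that share was Cpr49Ab alone, with 44.9 to 51.4% in H RNA-2 and 68.6 to 76.7% in H RNA-1. Without Cpr49Ab the Cpr sum was 9353 to 12743 in H RNA-2 and 10787 to 22546 in H RNA-1. In M it was then 13648 to 15665 at RNA-2 and 15510 to 20926 at RNA-1, so the time points overlapped in both diets. The other Cpr genes summed to 8707 to 11529 in H RNA-2 and 7721 to 13058 in H RNA-1, and to 11813 to 13160 in M RNA-2 and 10812 to 15070 in M RNA-1, so their ranges overlapped in both diets.

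In fat body, Cpr49Aa, Cpr49Ab, Cpr49Ac and Cpr49Ae of the Cpr49A cluster fell with age in H, and Cpr49Ab also fell in M. Between RNA-2 and RNA-1 in H, 4 members rose and 8 fell of 32, where 15.3% of all genes were called, 6.55% higher and 8.76% lower. Of the 8, 3 (Cpr49Ad, Cpr49Af and Cpr78Ca) reached 10 normalized counts in RNA-1 libraries only, so the filter itself favoured a lower value at RNA-2 and their direction is no independent result. In M, none rose and 2 fell of 32 (1 of them Cpr78Ca), where 13.6% of all genes were called, 8.52% higher and 5.07% lower. The median log2 change of the members was 0.14 in H and -0.10 in M, against 0.05 and -0.02 over all genes tested. Dividing by library totals gave 6 higher and 8 lower in H, with the median of all genes at 0.37, and quantile normalization gave 1 higher and 1 lower in M. Both members called in M, Cpr49Ab and Cpr78Ca, were also called in H (25% of the 8 lower in H). The share of all genes called in both diets was not computed here either. Without H RNA-2 replicates 1 and 3 and M RNA-1 replicate 1 the counts were 2 in H (Cpr49Ab lower and Cpr62Bb higher) and 1 in M (Cpr49Ab), H RNA-2 then being 1 library whose spread is taken from the other groups.

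The 4 genes of the Cpr49A cluster with 10 or more normalized counts at both time points were lower in every H RNA-2 library than in every H RNA-1 library, which held for 16.7% of all genes, and all 4 were called. Cpr49Ab had 7634, 13482 and 9563 normalized counts in H RNA-2, against 49332, 35418 and 45447 in H RNA-1. In M it had 11939, 11361 and 7437 at RNA-2 and 24293, 23314 and 21885 at RNA-1. The gap between the time points was wide in both diets (log2 change -2.11 ± 0.23, adjusted p = 0.000411 in H; -1.21 ± 0.23, adjusted p = 0.00861 in M), and both calls held under every alternative run. Cpr49Ae had 488, 1006 and 1274 in H RNA-2 and 7725, 2499 and 4241 in H RNA-1, and 1131, 739 and 2217 in M RNA-2 and 3972, 3222 and 3743 in M RNA-1. It was lower without overlap in both, with a call in H (-2.34 ± 0.50, adjusted p = 0.0115 in H; -1.56 ± 0.50, adjusted p = 0.0676 in M). Cpr49Ac had 142, 175 and 188 in H RNA-2 and 1480.3, 460.3 and 1896 in H RNA-1, and 642, 429.6 and 984 in M RNA-2 and 1722, 453 and 891 in M RNA-1. Its M groups overlapped (-2.69 ± 0.59, adjusted p = 0.0126 in H; -0.45 ± 0.59, adjusted p = 0.64 in M), and the H call was lost without H RNA-1 replicate 4 (-2.30, adjusted p = 0.0546). Cpr49Aa had 13.5, 31.9 and 16.3 in H RNA-2 and 139, 87.7 and 176 in H RNA-1, and 59.5, 36.5 and 116 in M RNA-2 and 126, 46.2 and 41.7 in M RNA-1. It fell in H and overlapped in M (-2.68 ± 0.55, adjusted p = 0.00944 in H; 0.02 ± 0.55, adjusted p = 0.985 in M).

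The 3 remaining genes of the cluster were near the limit of detection in fat body and passed the filter only through RNA-1 libraries, so their lower values at RNA-2 are given as a description. Cpr49Ad was listed at 0 in all 3 H RNA-2 libraries, against 40.4, 2.47 and 10.1 in H RNA-1, so its fitted change (-3.55 ± 0.96) depends on the pseudocount of 1 and is no bound. Cpr49Af averaged 1.28 ± 1.54 in H RNA-2 and 22.6 ± 22.4 in H RNA-1 (SD, n = 3 each). Cpr49Ag averaged 1.39 ± 1.85 and 22.0 ± 25.8 in the same order. In H RNA-1 the highest library of all 3 was replicate 1. Without H RNA-2 replicates 1 and 3, which had the highest germline marker sums of that group, and M RNA-1 replicate 1, the log2 changes in H were -1.67 for Cpr49Ab, which kept its call, and -1.98 for Cpr49Aa, -2.63 for Cpr49Ac and -2.11 for Cpr49Ae, without a call.

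**Figure D4:**
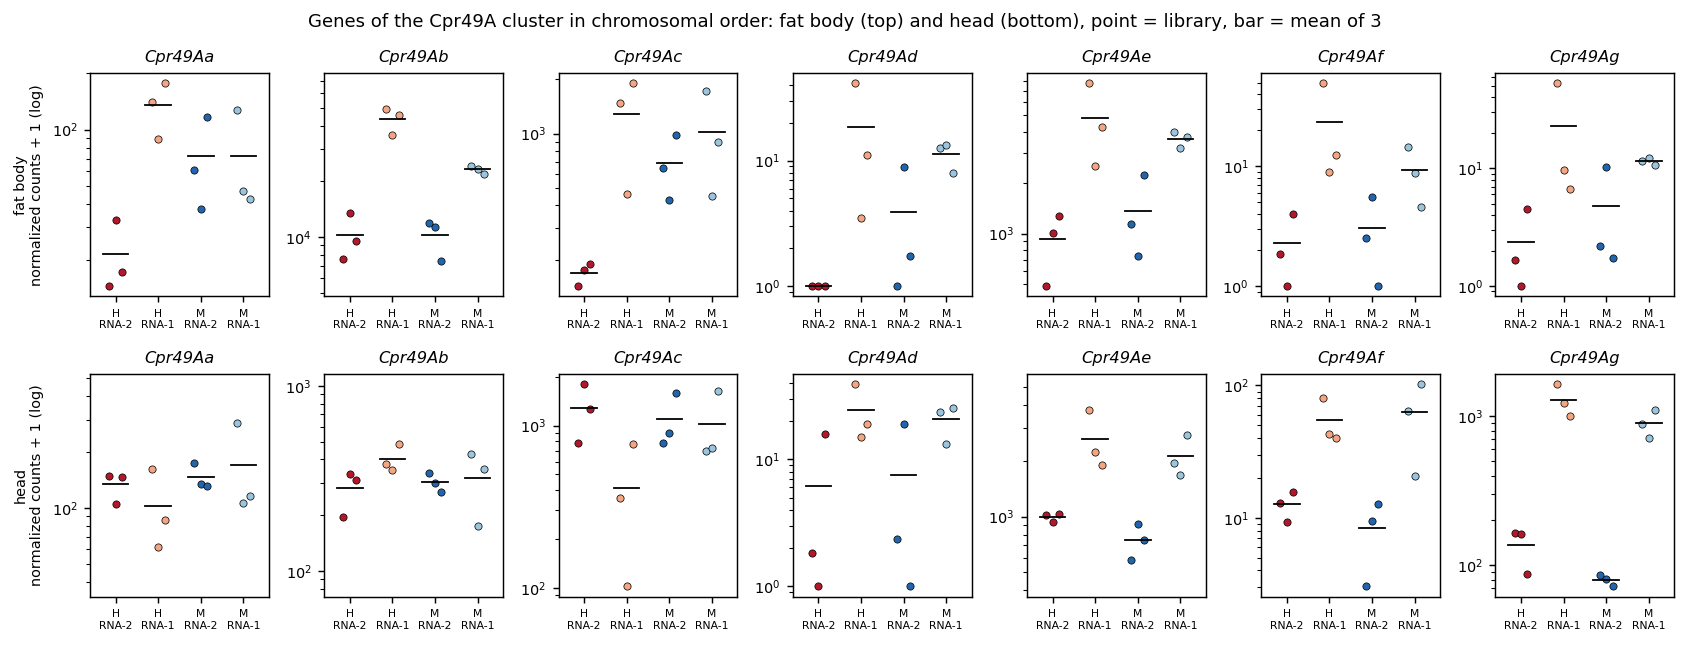
Normalized counts plus 1 (logarithmic axes) of the 7 genes of the Cpr49A cluster past the filter, in chromosomal order from left to right, in fat body (top row) and head (bottom row), by group (points, libraries; bars, means of 3 libraries). In fat body the 3 H RNA-2 libraries lie below the 3 H RNA-1 libraries for all 7 genes, of which Cpr49Ad, Cpr49Af and Cpr49Ag passed the filter there only through RNA-1 libraries, and in head Cpr49Ac lies the other way.

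Outside the cluster, Cpr76Bd fell in the fat body of H flies, and Cpr78Ca was lower at RNA-2 in both diets. Cpr78Ca (chromosome 3L, 21291860 to 21292800) had 1.36, 3.40 and 1.16 normalized counts in H RNA-2, against 24.0, 34.6 and 20.2 in H RNA-1, and 1.19, 1.43 and 1.50 in M RNA-2 and 11.7, 4.11 and 6.95 in M RNA-1. It passed the filter through 4 RNA-1 libraries only, 3 of them H, so the direction of its change was favoured by the filter (log2 change -3.24 ± 0.47 in H and -1.76 ± 0.47 in M). The RNA-2 values corresponded to a few reads. Cpr76Bd had 320.1, 451 and 282 in H RNA-2 and 858, 696 and 972 in H RNA-1, and 448, 419 and 506 in M RNA-2 and 504, 529 and 354 in M RNA-1. The 3 H RNA-1 libraries were the highest of the 12 (-1.28 ± 0.21, adjusted p = 0.00331 in H; 0.00 ± 0.21, adjusted p = 0.994 in M).

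Cpr64Ac, Cpr62Bb, Cpr73D and Cpr67Fb rose in the fat body of H flies, and 3 of these 4, all but Cpr73D, also rose in the head of H flies. Cpr64Ac had 76.1, 104 and 56.9 normalized counts in H RNA-2, against 17.7, 11.1 and 10.1 in H RNA-1, and 82.3, 131 and 77.1 in M RNA-2 and 21.0, 27.7 and 82.0 in M RNA-1. The H groups were well apart, whereas M RNA-1 replicate 3 lay within the M RNA-2 range (2.51 ± 0.49, adjusted p = 0.00712 in H; 1.34 ± 0.49, adjusted p = 0.0993 in M). Cpr62Bb had 462, 664 and 307 in H RNA-2 and 205, 95.8 and 142 in H RNA-1, and 311, 406 and 323 in M RNA-2 and 124, 301 and 195 in M RNA-1. Neither diet overlapped (1.69 ± 0.39, adjusted p = 0.0158 in H; 0.83 ± 0.39, adjusted p = 0.187 in M), and the H call was lost without H RNA-2 replicate 1 (1.67, adjusted p = 0.0536) or H RNA-1 replicates 2 (1.41, adjusted p = 0.0538) or 4 (1.69, adjusted p = 0.0528). Cpr73D had 821, 976 and 917 in H RNA-2 and 555, 490.3 and 554 in H RNA-1, and 771, 1145 and 777 in M RNA-2 and 723, 754 and 665 in M RNA-1. It rose in H (0.76 ± 0.15, adjusted p = 0.00745) and was higher in all M RNA-2 libraries without a call (0.31 ± 0.15, adjusted p = 0.201). Cpr67Fb averaged 14.9 ± 7.98 in H RNA-2 and 3.13 ± 2.27 in H RNA-1 (SD, n = 3 each; 1.97 ± 0.58, adjusted p = 0.047), and its call was lost without H RNA-2 replicates 1, 2 or 3, M RNA-2 replicates 1, 2 or 3, H RNA-1 replicates 1 or 2 or M RNA-1 replicates 2 or 3 (adjusted p between 0.0532 and 0.129, log2 change between 1.59 and 2.31). Cpr67B and Cpr57A, the other members among the 6 highest, were not called and overlapped between time points. Cpr67B had 4174, 5270.0 and 5535 in H RNA-2 and 8566, 4383 and 8071 in H RNA-1, and 6908, 6688 and 7591 in M RNA-2 and 10294, 8227 and 6468 in M RNA-1 (log2 change -0.44 ± 0.25 in H and -0.21 ± 0.25 in M). Cpr57A had 978, 1895 and 1582 in H RNA-2 and 1277, 1033 and 1702 in H RNA-1, and 1901, 1975 and 1446 in M RNA-2 and 1813, 1444 and 1548 in M RNA-1 (0.13 ± 0.25 in H and 0.14 ± 0.25 in M).

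Markers of several cell types, those of fat body itself included, also differed between the fat body libraries. Of the 5 epidermal markers none was called in either diet, and their sum was 3373 to 4521 in H RNA-2, 4861 to 5851 in H RNA-1, 3875 to 11139 in M RNA-2 and 6129 to 6198 in M RNA-1. Of the 4 tracheal markers 2 fell in H and 1 in M, with sums of 2345 to 3000.1 in H RNA-2, 3437 to 5543 in H RNA-1, 2675 to 3935 in M RNA-2 and 3366 to 3936 in M RNA-1. The eggshell markers summed to 505 to 972 in H RNA-2, 4120.1 to 25296 in H RNA-1, 423 to 772 in M RNA-2 and 1637 to 30928 in M RNA-1, and 1 of 5 fell in H and 3 in M. Gut markers, of which 3 of 5 fell in H and none was called in M, summed to 86017 to 345370.3 in H RNA-2 and 371636 to 990895 in H RNA-1. Of the 5 fat body markers 3 fell in each diet, with sums of 2434573 to 3069465 in H RNA-2 and 8317571 to 9977818 in H RNA-1. The part of these cells in the changes of the members was not tested.

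Between diets, limma called 0 of 32 fat body members at RNA-1, where 0.986% of all genes were called, and 0 of 32 at RNA-2, where 0.599% were. At an unadjusted p under 0.05 there were 8 members at RNA-1 and 3 at RNA-2. For Cpr49Ab all H RNA-1 libraries were above all M RNA-1 libraries (0.89 ± 0.23, adjusted p = 0.0968), a comparison that uses the same RNA-1 libraries as the age changes. The change with age in H minus that in M reached the threshold for 0 of 32 members in limma, where 2.02% of all genes were called, with 8 at an unadjusted p under 0.05. The smallest adjusted p values were those of Cpr76Bd (difference -1.28 ± 0.30, adjusted p = 0.0575) and Cpr49Aa (-2.70 ± 0.78, adjusted p = 0.0934), and for Cpr49Ab the difference was -0.90 ± 0.32, adjusted p = 0.152. Without H RNA-2 replicate 2 the count of differences was 4, and that of H against M at RNA-2 was 3.

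In ovary, Cpr transcripts were low, and some members lay close to the limit of detection. Of the 10 members, 2 (Cpr30B and Cpr50Cb) passed the filter only through the 3 H RNA-1 libraries. The 10 members had means of 7.15 to 78.2 normalized counts, led by Cpr67B with 24.7% of the Cpr sum, and 9 of them had means under 50. A single read was worth roughly 0.286 to 1.8 normalized counts in an ovary library, estimated from the spacing of the low values. Cpr50Cb, with a mean of 7.15, was the lowest inside the filter, and Cpr97Eb, with 6.76, the highest outside it. Between RNA-2 and RNA-1 in H, 3 of 10 members fell and none rose, where 47.8% of all genes were called, 22.8% lower. The filter fixed the direction in H for 2 of these 3, Cpr30B and Cpr50Cb, and their H values are given as a description. In M, 4 of 10 fell and none rose, where 20.4% of all genes were called, 10.6% lower. Cpr30B, Cpr50Cb and Cpr66D were called in both diets (100% of the H list and 75% of the M list). Of these, only Cpr66D had a direction in H that the filter did not fix, so the overlap is no measure of agreement between diets. In H, dividing by library totals and quantile normalization each gave 1 higher and 3 lower, with the median of all genes at 0.13 and 0.07, and quantile normalization left 1 call in M.

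Cpr30B (chromosome 2L, 9542878 to 9543658), which passed the filter in no other tissue, had 1.50, 1.04 and 1.23 normalized counts in H RNA-2, against 43.8, 22.2 and 28.9 in H RNA-1. In M it had 0.945, 3.21 and 0.567 at RNA-2 and 8.75, 6.57 and 5.15 at RNA-1. Every RNA-2 library was at the level of a few reads or below and under every RNA-1 library (log2 change -3.80 ± 0.56 in H; -1.71 ± 0.56, adjusted p = 0.0478 in M), and the M call was lost without H RNA-2 replicates 1, 2 or 3, M RNA-2 replicates 1 or 3, H RNA-1 replicates 1, 2 or 4 or M RNA-1 replicates 1, 2 or 3 (adjusted p between 0.0548 and 0.153, log2 change between -1.88 and -1.43). Between diets at RNA-1, where 25% of all genes were called, 11.5% higher, Cpr30B was the 1 member past the threshold, higher in H (2.03 ± 0.56), the group through which it passed the filter. Cpr50Cb had 1.49, 1.04 and 0 in H RNA-2 and 29.0, 16.5 and 15.5 in H RNA-1, and 0, 1.61 and 0 in M RNA-2 and 3.74, 9.86 and 7.15 in M RNA-1. The groups did not overlap (-3.58 ± 0.67 in H; -2.44 ± 0.67, adjusted p = 0.0255 in M), and the M call was lost without M RNA-2 replicates 1 or 3 or M RNA-1 replicates 2 or 3 (adjusted p between 0.0572 and 0.0979, log2 change between -2.38 and -2.17).

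Cpr66D, a lens protein in the eye, had 5.96, 11.5 and 19.8 normalized counts in H RNA-2, against 34.3, 136 and 78.9 in H RNA-1. In M it had 8.81, 8.09 and 0.285 at RNA-2 and 32.4, 36.2 and 19.3 at RNA-1. The time points did not overlap (-2.58 ± 0.76, adjusted p = 0.0144 in H; -2.59 ± 0.76, adjusted p = 0.0329 in M). The H call was lost without H RNA-2 replicate 1 (-2.18, adjusted p = 0.0609) or H RNA-1 replicate 2 (-2.12, adjusted p = 0.0696), and the M call without M RNA-2 replicate 3 (-1.64, adjusted p = 0.101) or M RNA-1 replicates 1 (-2.50, adjusted p = 0.0842) or 2 (-2.42, adjusted p = 0.101). Cpr65Au was called in M and not in H, with 0, 1.62 and 0 in M RNA-2 and 7.72, 4.46 and 19.5 in M RNA-1, against 23.1, 20.2 and 34.0 in H RNA-2 and 13.7, 7.82 and 11.4 in H RNA-1. Its M RNA-2 libraries were the 3 lowest of the 12 (-2.85 ± 0.61, adjusted p = 0.00873 in M; 1.16 ± 0.61, adjusted p = 0.135 in H). At RNA-2 it was the only member called between diets, higher in H (4.25 ± 0.61, adjusted p = 0.0375), where 0.0318% of all genes were called, 0.0212% higher, and it was not called without H RNA-2 replicates 1, 2 or 3, M RNA-2 replicates 1 or 3, H RNA-1 replicates 1, 2 or 4 or M RNA-1 replicate 1 (adjusted p between 0.0721 and 0.278, log2 change between 4.02 and 4.40). In limma the age changes of the diets differed for 0 of 10 members, where 0% of all genes were called, with 3 at an unadjusted p under 0.05. Cpr67B (55.2, 165 and 352 in H RNA-2, 30.4, 36.4 and 88.8 in H RNA-1, 12.3, 46.9 and 31.4 in M RNA-2 and 47.3, 28.5 and 42.8 in M RNA-1) overlapped between time points and was not called with age. The other 4 of the 6 highest ovary members were not called either. Cpr57A had 39.5, 48.8 and 68.9 in H RNA-2, 45.6, 73.5 and 49.0 in H RNA-1, 38.4, 52.8 and 39.4 in M RNA-2 and 39.4, 46.7 and 38.9 in M RNA-1. The lens gene Cpr72Ec had 17.9, 23.0 and 23.5 in H RNA-2, 46.0, 47.0 and 24.4 in H RNA-1, 24.5, 19.5 and 27.4 in M RNA-2 and 32.3, 44.0 and 20.3 in M RNA-1 (-0.79 ± 0.37, adjusted p = 0.1 in H; -0.37 ± 0.37, adjusted p = 0.508 in M). Its H groups did not overlap and its M groups did. Cpr78E, whose H groups did not overlap either, lay at 19.6, 20.8 and 22.1 in H RNA-2, 25.5, 22.9 and 28.8 in H RNA-1, 17.4, 12.6 and 16.0 in M RNA-2 and 11.3, 15.3 and 15.8 in M RNA-1, and Cpr47Ee at 5.96, 10.5 and 50.8 in H RNA-2, 47.2, 9.04 and 13.3 in H RNA-1, 3.46, 6.49 and 14.3 in M RNA-2 and 11.2, 20.9 and 25.3 in M RNA-1, where the libraries of a group differed several-fold.

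Markers of several cell types, the eggshell markers of the ovary itself included, also differed between the ovary libraries. The 5 photoreceptor markers summed to 808 to 1426 in H RNA-2, 842 to 1671 in H RNA-1, 3.50 to 286 in M RNA-2 and 1028 to 1371 in M RNA-1, with 0 of 5 lower in H and 5 of 5 in M. The fat body markers, of which 2 of 5 fell in H and 3 in M, summed to 51208 to 85456 in H RNA-2, 384853 to 541302 in H RNA-1, 40394 to 85982 in M RNA-2 and 163866 to 313349 in M RNA-1. The 2 lower in H were the yolk protein genes Yp1 (-2.74) and Yp2 (-2.72). Fbp1 (0.65), Lsp2 (0.81) and apolpp (-0.16) were not called in H. The sum therefore does not show how much fat body tissue the ovary libraries held. Of the 5 eggshell markers 4 fell in each diet, with sums of 31215 to 83623 in H RNA-2, 709644 to 1038912 in H RNA-1, 14698 to 81457 in M RNA-2 and 349037 to 586328 in M RNA-1. Their part in the ovary results was not tested.

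**Figure D5:**
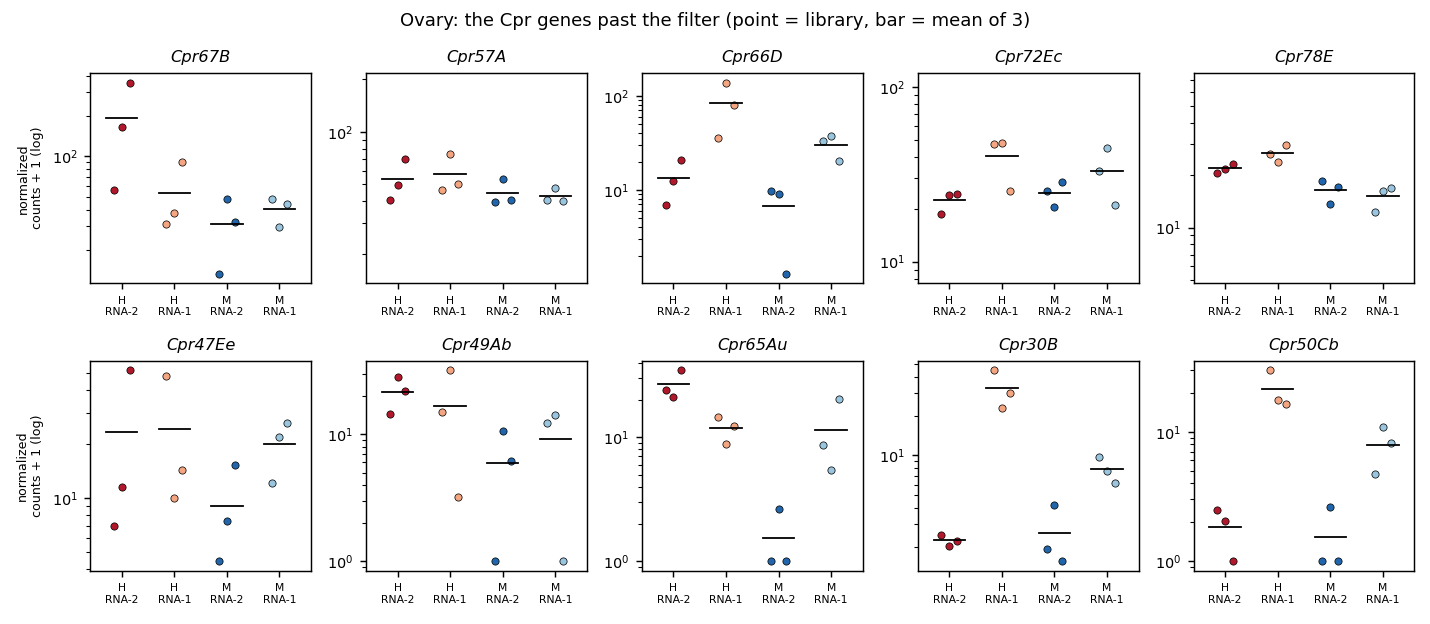
Normalized counts plus 1 in ovary (logarithmic axes) of the 10 Cpr genes past the filter, by group (points, libraries; bars, means of 3 libraries). Cpr30B, Cpr50Cb and Cpr66D are lower in the RNA-2 libraries of both diets, and Cpr65Au is lowest in M RNA-2. Cpr30B and Cpr50Cb passed the filter only through H RNA-1 libraries.

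Over the 3 tissues, 27 of the 41 members were called in at least 1 age comparison, 17 only as lower, 9 only as higher and 1 in both directions, and 14 in none. A single age comparison called between 13.6% (fat body in M) and 47.8% (ovary in H) of all genes. The share of all genes called in at least 1 of them was not computed. Of the 27 members, 8 were called in more than 1 tissue. Cpr49Ae and Cpr49Af were lower in head and fat body, Cpr50Cb and Cpr66D lower in head and ovary, and Cpr62Bb, Cpr64Ac and Cpr67Fb higher in head and fat body. Of these, Cpr49Af in fat body and Cpr50Cb in ovary passed the filter only through RNA-1 libraries. The same held for Cpr49Ad and Cpr78Ca in fat body and Cpr30B in ovary, which are among the 17 called only as lower. For these genes the filter favoured a lower value at RNA-2, so the excess of lower over higher members is partly made by the filter. Cpr73D was lower in the head of M flies and higher in the fat body of H flies. In fat body Cpr66D was not called, at 258, 558 and 217 in H RNA-2 and 326, 278 and 198 in H RNA-1 (log2 change 0.27 ± 0.43, overlapping groups).

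The other genes of cuticle formation gave mixed counts, and among cuticle proteins of other families the calls in head were all lower. Of 11 further Rebers and Riddiford genes tested in head, 4 rose in H and 1 rose and 1 fell in M. They included Acp65Aa, an adult cuticle protein (4.72 ± 0.58, adjusted p = 0.000206 in H; 1.54 ± 0.58, adjusted p = 0.0638 in M), and Pcp, the pupal cuticle protein gene inside the Gart locus (2.67 ± 0.32, adjusted p = 0.000155 in H). The near-identical copies Lcp65Ag1 and Lcp65Ag2 cannot be separated with certainty. Of 19 genes of other cuticle protein families, 6 fell in H and 5 in M and none rose, led beside retinin by Acp1 (-2.36 in H and -2.77 in M), Vajk2 (-3.26 and -1.74 in the same order) and Vajk4 (-2.48 and -2.83). Of 31 genes of chitin synthesis, assembly and turnover, 8 rose and 3 fell in each diet, among them the chitin deacetylases verm (1.54 in H and 1.39 in M) and serp (1.49 and 1.06) and the chitinase gene Cht2 (1.32 and 0.86). Both deacetylases also stand in the tracheal marker list. Of 19 tanning and pigmentation genes, 7 rose and 6 fell in H and 4 rose and 6 fell in M, with ple, tyrosine hydroxylase, higher (1.80 and 1.94) and t, the tan hydrolase, lower (-1.62 and -1.45). Of 14 nuclear receptors and factors, 1 fell in H and 5 rose in M. The nuclear receptor gene Hr38 changed in both, in opposite directions (-1.31 ± 0.19, adjusted p = 0.00063 in H; 0.91 ± 0.19, adjusted p = 0.0063 in M). Of 11 apical matrix genes, 1 fell in H, and 1 rose and 1 fell in M, the lower one in both being mwh, a regulator of wing hair polarity. All of these genes share the libraries of the members, and the shares of all genes called were those given above for head.

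In fat body, where 15.3% of all genes were called in H and 13.6% in M, 1 of 5 further Rebers and Riddiford genes rose in each diet, Crys in H and Acp65Aa in M. Among other cuticle protein families 1 of 11 fell in H (obst-E, -0.70) and none was called in M. Of 32 chitin genes, 3 rose and 3 fell in H, verm (-0.97) and serp (-0.89) among the lower ones, and 8 rose and 1 fell in M. Of 18 tanning genes, 3 rose and 2 fell in H and 4 rose in M. Of 13 nuclear receptors and factors, 3 fell in H and 4 in M, with br, the Broad factor of metamorphosis, lower in both (-1.10 ± 0.30, adjusted p = 0.035 in H; -1.98 ± 0.30, adjusted p = 0.0031 in M). Of 10 apical matrix genes 1 fell in H, again mwh. In ovary, where 47.8% of all genes were called in H (22.8% lower) and 20.4% in M (10.6% lower), none of the further Rebers and Riddiford genes passed the filter. There 4 of 7 genes of other cuticle families fell in H and 1 in M, 4 of 25 chitin genes rose and 6 fell in H and 2 rose and 6 fell in M, and 3 of 17 tanning genes fell in each diet. Of 12 ovary nuclear receptors and factors 1 rose and 6 fell in H and 2 rose and 4 fell in M, and of 7 apical matrix genes 3 fell in H and 2 in M.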

How the data were processed

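RNA from pools of 11 or 12 females was sequenced by the authors from head, fat body and ovary (TruSeq stranded libraries). Per the labels, reads were quantified with kallisto 0.46.1 against BDGP6 and handled in R 4.0.1 with DESeq2 1.28.1. The deposited signal values were normalized counts per gene, scaled within each tissue. No source used here gives its strand setting. The same tables held the authors' own fold changes and p-values, which were not used.

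Here symbols were matched to FlyBase names, and coordinates and exon lengths came from the Ensembl 115 annotation of BDGP6. Whole reads could not be recovered from the values, so no count test was run. Genes with 10 or more in at least 3 of the 12 libraries of a tissue were tested on log2(value + 1) with limma 3.58.1 (trend, robust; R 4.3.3, statmod 1.5.0), with 4 groups per tissue and Benjamini-Hochberg adjustment over all genes tested (threshold 0.05). Differences on that scale understate changes of low genes, and a mean ± SD is over 3 libraries. The p-values measure the spread between pools. Tests stayed within a tissue.

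Named with library values were the 6 members with the highest mean in a tissue and up to 10 called members with the smallest p per comparison. The members, gene lists and marker lists were chosen with earlier results of these data known. Alternatives were the pseudocount, the filter, the normalization, the threshold, fits without the trend or with only the 6 libraries of a comparison, a replicate block, each library left out, and the libraries that stood apart in earlier results left out together. Removal of the length trend (lowess span 0.4) was added after seeing the data. The procedure was tested on simulated data.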

Additional observations from a re-analysis of the deposited data

Results flagged for a closer look

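The change with age between RNA-2 and RNA-1 went in opposite directions in different tissues for 3 members, with no overlap between the time points in either tissue. The difference between tissues was not tested, since the tables were normalized separately. These members were picked by a search over all members and pairs of tissues, and the share of all genes with such a pattern was not computed. In H, Cpr49Ac had a log2 change of 2.00 in head, without a call, and -2.69 in fat body. In H, Cpr78E had a log2 change of 2.30 in head, where the call was lost in 7 of 22 alternatives. Its change in ovary was -0.29 ± 0.33, without a call and smaller than its SE, so that direction is uncertain. In M, Cpr73D had a log2 change of -0.39 in head and 0.31 in fat body, the latter without a call.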

How the results depend on the processing

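Of 54 called changes of single members, with 1215 values under alternatives, 1018 kept their call, 197 lost it with the same sign and 0 reversed, and 16 changes kept their call under every alternative run (9 of 15 in head in H, 3 of 13 in head in M, 1 of 12 in fat body in H, 1 of 2 in fat body in M and 2 of 3 in ovary in H). The 2 kept in ovary in H were Cpr30B and Cpr50Cb, which passed the filter only through H RNA-1 libraries. The filter thus fixed their direction, and the run with at least 50 in 3 libraries left them out, so their stability is no support. The cause was not tested where counts moved, as follows.

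In head, the 13 members called with age in M were 6 at an adjusted p under 0.01, 7 in a fit of only the 6 libraries compared, 4 with M RNA-1 replicates 1 and 3 removed and 8 to 13 with 1 library left out (8 without M RNA-2 replicate 2 or M RNA-1 replicate 1). The 15 called in H were 13 to 16 with 1 library left out. The 0 differences between the age changes became 1 with the length trend removed and 0 to 5 with 1 library left out (5 without M RNA-1 replicate 2). The 3 called between H and M at RNA-1 were 1 at 0.01, 0 in a fit of 6 libraries, 0 with M RNA-1 replicates 1 and 3 removed and 0 to 11 with 1 left out (0 without M RNA-1 replicate 1, 11 without replicate 2, 1 without replicate 3, 5 without H RNA-1 replicate 1, 1 without H RNA-1 replicate 2, 5 without M RNA-2 replicate 2).

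In fat body, the 12 called in H were 6 at 0.01. The run with H RNA-2 replicates 1 and 3 and M RNA-1 replicate 1 removed, which leaves 1 H RNA-2 library, is described above. The 2 called in M were 1 at 0.01, with at least 50 in 3 libraries, in a fit of 6 libraries and with the same libraries removed, and 1 to 3 with 1 library left out (1 without M RNA-2 replicate 1 or 2 or M RNA-1 replicate 1). The 0 differences between age changes became 1 with the length trend removed and 0 to 4 with 1 left out (4 without H RNA-2 replicate 2). The 0 called between H and M at RNA-1 became 1 under quantile normalization and division by totals and 0 to 1 with 1 left out (1 without M RNA-2 replicate 2). At RNA-2 the 0 became 1 with a pseudocount of 5 and 0 to 3 with 1 left out (3 without H RNA-2 replicate 2, 1 without M RNA-2 replicate 2 or H RNA-1 replicate 2).

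In ovary, where some values lie near single reads, the 4 called in M were 1 at 0.01 and 1 under quantile normalization. The count was 0 with at least 50 in 3 libraries, 2 with a pseudocount of 5, 0 in a fit of 6 libraries and 1 to 4 with 1 left out. The 3 called in H were 7 with no filter, 0 with at least 50 and 2 to 5 with 1 left out (5 without H RNA-1 replicate 4). The 0 differences between age changes were 0 to 1 with 1 left out (1 without M RNA-1 replicate 2). The 1 called between H and M at RNA-1 became 0 at 0.01, 2 without a variance trend, 3 with no filter, 0 with at least 50, 2 with a pseudocount of 5 and 0 to 1 with 1 left out. The 1 called at RNA-2 became 0 at 0.01, without a variance trend, under quantile normalization, with at least 50 and in a fit of 6 libraries, and 0 to 1 with 1 left out.

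Replicate numbers were not taken to pair the libraries. Over 30 same-numbered pairs the correlation of deviations was -0.26 to 0.32 and above 0.1 in 7. All same-numbered pairs exceeded 0.1 between M and H at RNA-1 in ovary (0.28 and 0.26). The same held between H RNA-1 and H RNA-2 in fat body (0.24 and 0.12). In 0 of 12 pairs of groups did 3 replicate numbers all exceed 0.1. Several pairs of groups shared fewer than 3 numbers and could not reach that, so this count does not decide whether libraries were paired. With the replicate block, 9 members were called with age in head in H, 6 in fat body in H, and 0 in ovary between H and M at RNA-1 and 0 at RNA-2, and the other counts stayed within 1.5 times.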
